A study of Mus musculus with 18 samples.

Results

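The levels of 30 genes that mark endothelial cells were followed in dissected thick ascending limbs of the mouse kidney, pool by pool. The genes were chosen by name, as commonly used markers of the cells that line blood vessels, and they are 30 of the 55401 genes in the tables. RNA was sequenced from 18 pools of tubules, 5 each from the CTAL and the MTAL of WT mice, 5 from the CTAL of cKO mice and 3 from their MTAL. CTAL is the cortical and MTAL the medullary thick ascending limb, the latter taken where the outer medulla has its inner stripe. The question was how much RNA of vessel cells came along with the tubules, and whether that amount moved with the segment or with the loss of *Cldn10*, the gene of a claudin that lets sodium pass between the cells of this tubule. All mice carried floxed *Cldn10* alleles (*Cldn10* fl/fl) on a C57BL/6 background and were described as adult males. cKO mice also carried Cre under control of the Ksp-cadherin promoter, an epithelial promoter of the distal nephron, and WT mice were littermates without Cre. Each pool held 150 to 200 tubules from a distinct mouse, picked by hand from a kidney digested with liberase, and *Cldn10* is not fully lost in this model. The study describes the cKO MTAL as very hard to dissect, because of calcium deposits (nephrocalcinosis) in the outer medulla. The 3 cKO MTAL pools are those that passed quality control. What this did to the vessel RNA in them was not tested.

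Endothelial cells line every vessel of the kidney, from the glomerular tuft to the capillaries around the cortical tubules and the vasa recta that run beside the thick ascending limb in the outer medulla. They hold together through VE-cadherin (*Cdh5*), PECAM-1 (*Pecam1*) and other adhesion molecules, depend on the VEGF and angiopoietin receptors (*Kdr*, *Flt1*, *Tek*), and take their identity from ETS and SOX transcription factors such as *Erg* and *Sox17*. Thick ascending limb cells are epithelial and are not known for most of these genes, so that their level in a pool of tubules is used as a reading of its vessel RNA. In such bulk samples, fewer endothelial cells and less RNA per endothelial cell cannot be told apart.

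The pools held thick ascending limb RNA in every group. *Slc12a1*, which encodes the NKCC2 cotransporter of this segment, had group means of 13490 to 15384 CPM (counts scaled to a common total, with TMM-normalized library sizes), and the total count per pool ranged from 10824299 to 62339939. *Cldn10* was at 499 ± 82.1 CPM in WT CTAL and 172 ± 10.5 in cKO CTAL (SD, n = 5 each), and at 750 ± 60.5 in WT MTAL (n = 5) and 221 ± 72.2 in cKO MTAL (n = 3). Its fall was called in both segments (log2 fold change -1.55, SE 0.11, adjusted p = 5.6e-06 in CTAL and -1.75, SE 0.18, adjusted p = 2.9e-05 in MTAL, quasi-likelihood F test of edgeR). The study kept only cKO pools with *Cldn10* below WT, so this fall was a condition for the choice of pools and not an outcome. WT CTAL replicate 1 carried labels that disagree, knock-out in its genotype field and WT in its pool name, and it was used as WT. Its *Cldn10* level was 446 CPM, where the other WT CTAL pools held 384 to 579 CPM and the cKO CTAL pools 156 to 185 CPM. Although the mice were described as male, 7 of the 18 pools held *Xist*, the RNA of the inactive X chromosome, at 6.37 to 8.58 CPM, and the other 11 pools at 0.228 to 0.743 CPM. These were 2 of 5 WT CTAL, 1 of 5 cKO CTAL, 4 of 5 WT MTAL and 0 of 3 cKO MTAL pools. The Y-linked *Ddx3y* was present in all, at 23.2 to 37.3 CPM in the pools with *Xist* and 31.5 to 40.0 CPM in the others. In the MTAL, *Xist* and the genotype cannot be told apart except through WT MTAL replicate 13, and the counts of genes called are given also with a term for *Xist* and for the pools without it.

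To show what the promoters of the genes that fell in cKO MTAL look like, the 250 bases before the RefSeq start are printed for the 5 of them with a window in the RefSeq table (build GRCm38.p6, 5′ to 3′ on the strand of the gene). Of all 30 genes, 15 had such windows, 21 in number. The letters AGGAAG, a core bound by ETS factors such as the product of *Erg*, were searched on both strands and stand in capitals, as CTTCCT where they lie on the opposite strand.
Cd34 (chr1:194938571-194938820, plus strand): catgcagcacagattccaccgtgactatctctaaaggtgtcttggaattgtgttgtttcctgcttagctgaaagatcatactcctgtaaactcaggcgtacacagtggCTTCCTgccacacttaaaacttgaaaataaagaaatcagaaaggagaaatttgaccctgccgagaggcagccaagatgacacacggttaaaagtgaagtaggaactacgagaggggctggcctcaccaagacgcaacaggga
Emcn (chr3:137340828-137341077, plus strand): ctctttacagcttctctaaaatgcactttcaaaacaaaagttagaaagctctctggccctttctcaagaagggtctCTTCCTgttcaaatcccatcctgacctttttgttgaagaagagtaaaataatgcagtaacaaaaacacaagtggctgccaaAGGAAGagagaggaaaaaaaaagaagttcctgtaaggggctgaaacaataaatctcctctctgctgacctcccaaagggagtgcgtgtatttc
Flt1 (chr5:147726012-147726261, minus strand): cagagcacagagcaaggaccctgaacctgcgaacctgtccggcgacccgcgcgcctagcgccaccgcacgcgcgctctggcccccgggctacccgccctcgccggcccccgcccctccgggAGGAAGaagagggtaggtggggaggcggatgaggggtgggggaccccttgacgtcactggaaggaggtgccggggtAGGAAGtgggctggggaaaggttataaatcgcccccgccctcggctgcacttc
Tek (chr4:94739039-94739288, plus strand): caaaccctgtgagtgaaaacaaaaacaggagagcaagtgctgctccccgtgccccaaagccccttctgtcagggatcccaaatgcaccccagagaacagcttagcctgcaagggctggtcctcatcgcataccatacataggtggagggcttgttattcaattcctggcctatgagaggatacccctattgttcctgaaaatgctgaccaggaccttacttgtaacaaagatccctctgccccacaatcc
Adgrl4 (chr3:151437632-151437881, plus strand): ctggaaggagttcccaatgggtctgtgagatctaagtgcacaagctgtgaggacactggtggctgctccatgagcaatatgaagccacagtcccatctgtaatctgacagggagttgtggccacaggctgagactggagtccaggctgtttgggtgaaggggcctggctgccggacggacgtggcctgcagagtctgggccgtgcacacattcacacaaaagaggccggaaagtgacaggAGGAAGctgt
The ETS core was found in 4 of these 5 windows, 2 times each in *Emcn* and *Flt1* and not in *Tek*, and in 12 of the 21 windows of the 30 genes. Of all 32851 RefSeq windows of this length, 29.5% held it. The GATA core GATAAG and the SOX core ACAATG were in none of the 5 windows and each in 1 of the 21, beside 6.55% and 10.7% of all windows. A match of letters is a description and not a bound site.

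On GRCm38, the build also called mm10, the genes called in at least 1 comparison lie far apart. *Cd34* is at chr1:194938819-194961279, *Emcn*, *S1pr1* and *Adgrl4* are at chr3:137341067-137432185, chr3:115710433-115715072 and chr3:151437887-151545086, *Tek* at chr4:94739289-94874976 and *Flt1* at chr5:147561604-147726011. *Cdh5* and *Plvap* are at chr8:104101625-104144511 and chr8:71497765-71511752, *Esam* at chr9:37528078-37538319, *Ptprb* at chr10:116275523-116389535 and *Mmrn2* at chr14:34375465-34404287. All 11 are protein-coding, and *Cd34* shares exonic bases with *Gm16897* on the opposite strand, whose reads cannot be told apart from its own unless the counting used the strand.

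All 30 genes were detected in all 18 pools, but at low levels. Together they took 0.0417% to 0.101% of the counts of a pool, which was 6918 to 48516 counts. On the TPM scale, which divides by transcript length and allows genes to be compared, *Plvap*, the protein of the diaphragms of fenestrated capillaries, was the most abundant, with a median level of 66.2 TPM over the 18 pools. *Esam*, an adhesion molecule of endothelial junctions, followed at 44.2 TPM, then *Egfl7*, a secreted protein of vessel walls, at 22.6 TPM, *Adgrl4*, an adhesion G protein-coupled receptor, at 20.5 TPM and *Emcn*, the surface sialomucin endomucin, at 19.05 TPM. The classical markers *Pecam1*, *Kdr* and *Cdh5* stood at median levels of 14.7, 11.5 and 8.01 TPM. At the low end were *Nos3*, the endothelial nitric oxide synthase, at 1.10 TPM, *Sox7* at 0.548 TPM, *Tal1* at 0.318 TPM and *Vwf*, the von Willebrand factor of larger vessels, at 0.117 TPM. Neighbours in this order overlapped in their ranges over the pools, as *Plvap* (35.7 to 110 TPM) and *Esam* (33.7 to 130 TPM) did.

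By its group means, the summed level of the 30 genes was lower in cKO than in WT in both segments and highest in WT MTAL. It was 522, 1031, 721, 846 and 794 CPM in WT CTAL replicates 1, 3, 8, 10 and 22, and 492, 596, 524, 530 and 459 CPM in cKO CTAL replicates 2, 4, 7, 9 and 21. In WT MTAL replicates 11, 13, 15, 17 and 19 it was between 749 (replicate 13) and 1035 CPM, and in cKO MTAL replicates 16, 18 and 20 it was 509, 404 and 703 CPM. All 3 cKO MTAL pools lay under all 5 WT MTAL pools, while the WT CTAL and cKO CTAL pools overlapped through WT CTAL replicate 1. The group means were 783 ± 185 CPM in WT CTAL, 521 ± 50.8 in cKO CTAL, 928 ± 117 in WT MTAL (SD, n = 5 each) and 539 ± 152 in cKO MTAL (n = 3). The log2 ratio of the means was -0.78 for cKO against WT MTAL, -0.59 for cKO against WT CTAL, 0.25 for WT MTAL against WT CTAL and 0.05 for cKO MTAL against cKO CTAL. Among the pools without *Xist* the first 3 of these ratios were -0.48, -0.40 and 0.10. No test was run on the sum, since the genes were chosen with results known.

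**Figure D1:**
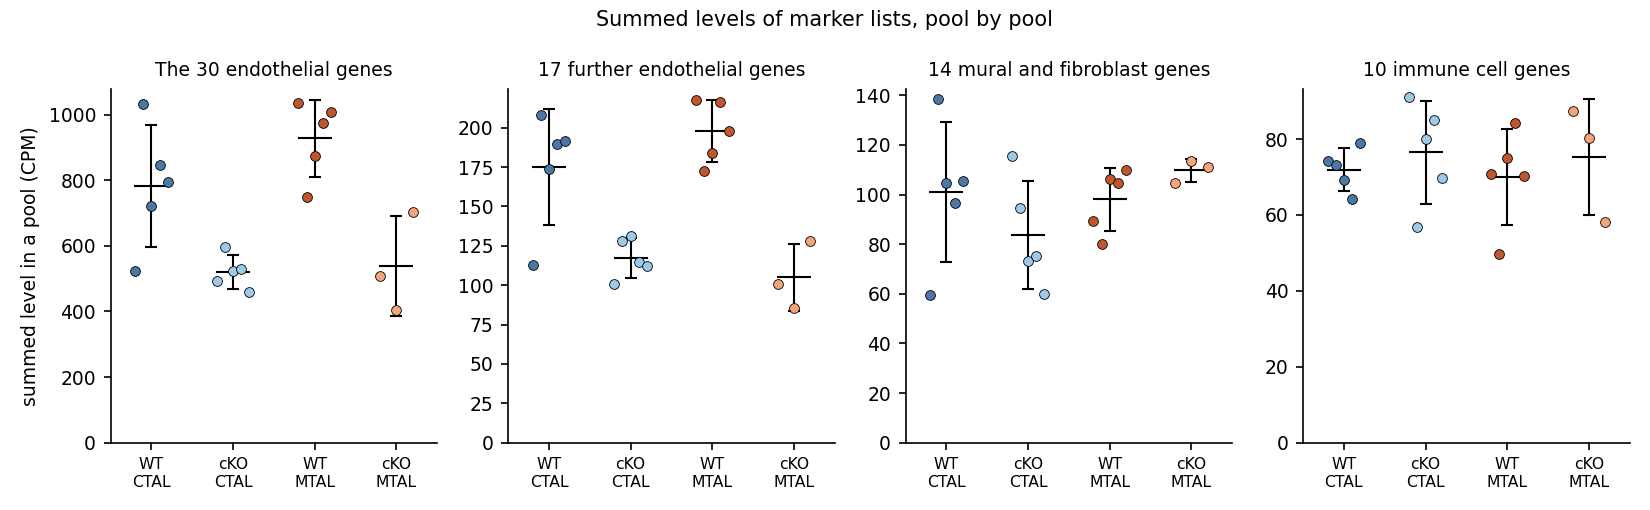
Summed level (CPM) of 4 marker lists in each pool, by group. Points are pools, and bars give the mean and SD of a group. The 30 endothelial genes and the 17 further endothelial genes lay lower in cKO MTAL (means 539 and 105 CPM) than in WT MTAL (928 and 198 CPM), while the mural and fibroblast list (110 against 98.1 CPM) and the immune cell list (75.3 against 70.0 CPM) did not share that order.

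The genes moved together from pool to pool. Among the 24 genes with a mean of at least 3 CPM, WT CTAL replicate 1 had the lowest level of its group for 20 and WT CTAL replicate 3 the highest for 17. In cKO MTAL, replicate 18 was lowest for 18 genes and replicate 20 highest for 14, and in WT MTAL replicate 13 was lowest for 13. Pearson's r between the log2 level of a gene and the mean of the other members over the 18 pools was highest for *Plvap* (0.96), *Adgrl4* (0.95) and *Tek* (0.94) and lowest for *Sox18* (0.40), *Esam* (0.34) and *Icam2* (0.24). These r values are descriptions over pools of 4 groups that share segment and genotype.

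**Figure D2:**
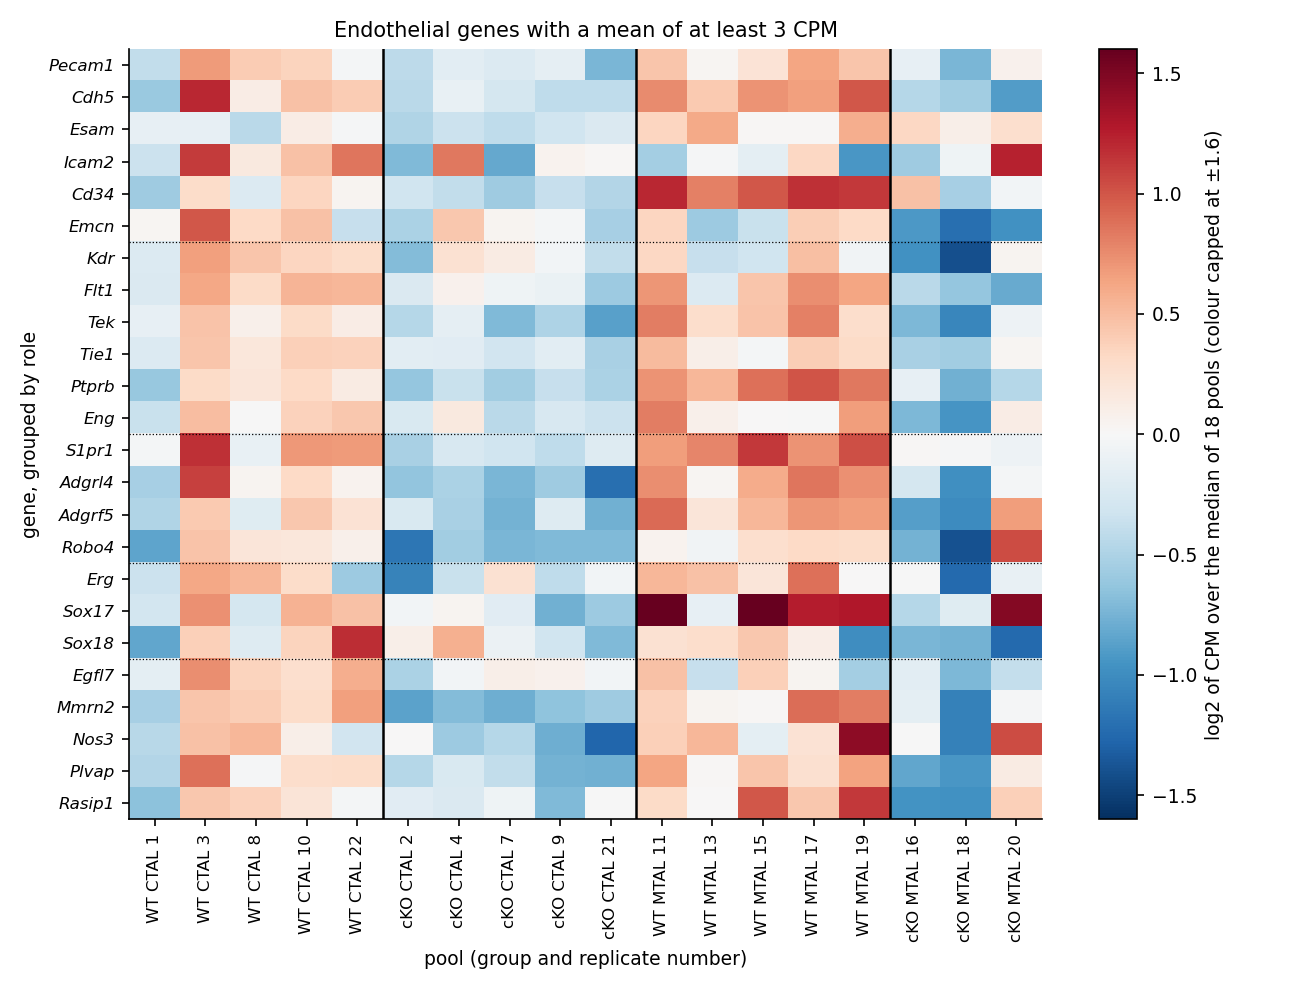
Level of the 24 genes with a mean of at least 3 CPM (rows, by role) in each of the 18 pools (columns, by group and replicate), as log2 of CPM over the gene's median of 18 pools, with the colour capped at 1.6 in each direction. WT CTAL replicate 3 was above the median for 23 of 24 genes and the WT MTAL pools for 17 to 23, and cKO MTAL replicate 18 was above it for 1 of 24.

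In the MTAL, 9 of the 26 genes tested fell in cKO and none rose. They were the junction and adhesion genes *Cdh5*, *Cd34* and *Emcn*, the growth factor receptor genes *Flt1*, *Tek* and *Ptprb*, the receptors *S1pr1* and *Adgrl4*, and *Plvap*. Their levels in cKO MTAL were 0.396 (*Cdh5*) to 0.549 (*Plvap*) times those in WT MTAL. Of all 12060 genes tested in this comparison, 2.57% fell and 4.44% rose (edgeR quasi-likelihood F test, adjusted p under 0.05). A fall of at least 1 on the log2 scale was called for 6 of the 26, against 1.04% of all genes. Of the 26, 25 had a negative log2 fold change, with a median of -0.80 where that of all genes was 0.00, and 18 had an unadjusted p under 0.05, all of them lower. For 10 genes all cKO MTAL pools were under all WT MTAL pools, which held for 7.65% of all genes. When a term for the pools with *Xist* was added, chosen after seeing the data, edgeR called 0 of the 26 (5 had an unadjusted p under 0.05), 21 stayed negative and their median was -0.39. Among the pools without *Xist* 0 of 23 were called (2 at an unadjusted p under 0.05), as were 0 of all genes. With the term the 9 genes had log2 fold changes from -1.04 (*Cdh5*) to -0.39 (*Flt1*) and adjusted p from 0.131 (*Ptprb*) to 0.783 (*Emcn*). In that fit 0.141% of all genes fell. Other tests called 10 (edgeR likelihood ratio test, where 3.91% of all genes fell), 11 (DESeq2, 4.21%), 13 (edgeR with all 18 pools in 1 fit, 6.67%) and 3 (limma on log2(TPM + 1), 0.265%). WT MTAL replicate 13, the sole WT MTAL pool without *Xist*, had the lowest summed level of its group (749 CPM), above the 3 cKO MTAL pools (404 to 703 CPM).

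Of the 7 junction and adhesion genes, 3 fell in cKO MTAL. *Cdh5*, the cadherin of endothelial adherens junctions, stood at 41.1, 32.6, 40.0, 38.2 and 48.5 CPM in the WT MTAL pools (replicates 11, 13, 15, 17 and 19, the order kept below) and at 17.7, 16.5 and 13.1 CPM in the cKO MTAL pools (replicates 16, 18 and 20). All cKO pools were low and the groups did not overlap (log2 fold change -1.34, SE 0.19, adjusted p = 0.000447, edgeR). *Cd34*, a surface sialomucin of capillary endothelium, was at 33.6, 25.3, 28.9, 32.7 and 31.8 CPM in WT and at 19.997, 10.02 and 14.03 CPM in cKO. Again no pool overlapped (-1.05, SE 0.23, adjusted p = 0.0114). *Emcn* was at 28.5, 14.97, 17.5, 29.3 and 27.9 CPM in WT and at 11.8, 9.68 and 11.5 CPM in cKO. WT replicates 13 and 15 came close to the cKO pools without reaching them (-1.10, SE 0.26, adjusted p = 0.0204), and the call was lost without WT MTAL replicate 17 or 19 or cKO MTAL replicate 18 or 20. *Pecam1*, the homophilic adhesion molecule of endothelium, ranged from 36.0 to 54.7 CPM in WT and from 21.2 to 36.8 in cKO and did not pass (-0.59, SE 0.20, adjusted p = 0.082). *Esam* was at 84.2, 101, 67.4, 67.5 and 99.2 CPM in WT and at 83.8, 71.0 and 80.2 in cKO, with the cKO pools inside the WT range (-0.09, SE 0.16, adjusted p = 0.77). *Cldn5*, the claudin of endothelial tight junctions, had a mean of 3.17 ± 1.26 CPM in WT (n = 5) and 1.96 ± 0.39 in cKO (n = 3), and *Icam2*, a ligand of leukocyte integrins and the sole gene of the 26 with a positive value, had 2.57 ± 0.83 and 3.91 ± 2.65 CPM.

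All 6 vascular growth factor receptors and partners had a negative log2 fold change in cKO MTAL, and 3 of them passed. *Flt1*, VEGF receptor 1, was at 68.2, 36.0, 56.8, 70.1 and 64.8 CPM in WT MTAL and at 31.0, 27.2 and 24.0 CPM in cKO MTAL. The groups did not overlap, with WT replicate 13 nearest to the cKO pools (-1.10, SE 0.21, adjusted p = 0.00456, edgeR). *Tek*, the angiopoietin receptor TIE2, was at 45.4, 31.3, 35.1, 44.8 and 31.2 CPM in WT and at 15.6, 12.4 and 24.2 CPM in cKO, again without overlap (-1.10, SE 0.23, adjusted p = 0.00959). *Ptprb*, the endothelial phosphatase VE-PTP that acts on TIE2 and VE-cadherin, was at 76.9, 67.8, 86.1, 93.9 and 84.2 CPM in WT and at 42.9, 27.4 and 34.2 CPM in cKO. The lowest WT pool was well above the highest cKO pool (-1.23, SE 0.17, adjusted p = 0.000351). *Kdr*, VEGF receptor 2, was at 58.9, 36.3, 37.7, 65.4 and 45.0 CPM in WT and at 23.9, 17.7 and 48.4 CPM in cKO. Replicate 20 lay among the WT pools and the other cKO pools below them, and the gene did not pass (-0.69, SE 0.29, adjusted p = 0.153). *Eng*, the TGF-β co-receptor endoglin, was at 75.0, 45.0, 42.7, 42.2 and 67.5 CPM in WT and at 25.9, 22.2 and 46.1 CPM in cKO, with replicate 20 again inside the WT range (-0.79, SE 0.26, adjusted p = 0.073). *Tie1*, the orphan partner of TIE2, went from 21.2 ± 3.14 (n = 5) to 14.1 ± 3.37 CPM (n = 3) and did not pass (-0.58, SE 0.23, adjusted p = 0.13).

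Among the other receptors, 2 of the 5 tested fell in cKO MTAL. *S1pr1*, the receptor through which sphingosine-1-phosphate tightens vessel walls, was at 15.9, 17.1, 21.8, 16.4 and 20.4 CPM in WT and at 10.1, 9.82 and 9.41 CPM in cKO. The cKO pools lay close together under all WT pools (-0.90, SE 0.23, adjusted p = 0.027, edgeR), and the call was lost when any of WT MTAL replicates 15, 17 and 19 or any cKO MTAL pool was left out. *Adgrl4* was at 51.8, 31.5, 46.6, 56.0 and 51.4 CPM in WT and at 25.4, 15.6 and 30.1 CPM in cKO. WT replicate 13 was just above cKO replicate 20 and the groups did not overlap (-0.996, SE 0.23, adjusted p = 0.0164). *Adgrf5*, an adhesion G protein-coupled receptor of the same class, was at 103, 62.8, 79.4, 90.1 and 87.8 CPM in WT and at 29.996, 27.4 and 87.4 CPM in cKO. Replicate 20 was as high as the WT pools and the others far below them (-0.80, SE 0.30, adjusted p = 0.116). *Robo4*, a roundabout receptor of endothelium, was at 9.34, 6.02 and 32.4 CPM in the cKO pools, with replicate 20 above and the others below the WT range of 15.1 to 19.7 CPM (-0.16, SE 0.39, adjusted p = 0.85). *Ramp2*, the partner of the adrenomedullin receptor, was near 3 CPM in both groups and did not pass, and *Ecscr*, an endothelial surface protein, did not pass the filter on low levels (-0.28, SE 0.49, adjusted p = 0.78 in a fit without it).

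No transcription factor of the 3 tested passed in cKO MTAL, and 2 had an unadjusted p under 0.05. *Erg*, the ETS factor of endothelial identity, ranged from 6.26 to 11.4 CPM in WT and from 2.62 to 6.18 in cKO without overlap (-0.81, SE 0.38, adjusted p = 0.208, edgeR). *Sox17*, an arterial SOX factor, had means of 10.6 ± 4.64 and 6.03 ± 4.73 CPM, and *Sox18*, another SOX factor of vessels, 5.86 ± 1.82 and 2.96 ± 0.56 CPM (SD, n = 5 and 3). *Sox7* and *Tal1*, a factor of blood and endothelial development, did not pass the filter. *Sox7* spanned 1.10 to 4.68 CPM in WT MTAL and 0.414 to 0.735 CPM in cKO MTAL, without overlap (-2.17, SE 0.63, adjusted p = 0.076 in a fit without the filter), and *Tal1* had -0.24 (SE 0.66, adjusted p = 0.86) in that fit.

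Of the secreted, enzyme and structural genes, 1 of 5 tested fell in cKO MTAL. *Plvap* was at 154, 99.98, 134, 118 and 154 CPM in WT and at 55.8, 51.7 and 109 CPM in cKO. Replicates 16 and 18 were low and replicate 20 overlapped with WT replicate 13 (-0.86, SE 0.22, adjusted p = 0.0263, edgeR). Its call was lost without WT MTAL replicate 11, 15 or 19 or cKO MTAL replicate 16 or 18. *Mmrn2*, an extracellular matrix protein of vessels, was at 20.97, 16.8, 16.5, 30.2 and 28.8 CPM in WT and at 14.6, 7.70 and 15.98 CPM in cKO, without overlap, and did not pass (-0.82, SE 0.29, adjusted p = 0.097). *Rasip1*, which helps vessels to form a lumen, had means of 13.1 ± 4.29 (n = 5) and 6.53 ± 3.83 CPM (n = 3; -0.99, SE 0.38, adjusted p = 0.125). *Egfl7* (18.7 ± 5.60 and 13.7 ± 2.55 CPM) and *Nos3* (5.64 ± 2.62 and 4.43 ± 3.05 CPM) did not pass.

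cKO MTAL replicate 20 stood apart on the TPM scale. Its summed level was 522 TPM, the highest of all 18 pools, where replicates 16 and 18 were at 277 and 220 TPM and the WT MTAL pools at 379 to 481 TPM. *Esam* (130 TPM), *Adgrf5* (59.0 TPM), *Robo4* (49.7 TPM) and *Icam2* (19.6 TPM) had their highest level of all pools there. The same pool held 763 CPM of the principal cell list and 159 CPM of the intercalated cell list, which mark the collecting duct, where replicate 16 held 65.4 and 30.9 CPM and replicate 18 held 70.1 and 47.8 CPM. Without this pool 12 of the genes fell in cKO MTAL, beside 1.21% of all genes. The part of the collecting duct RNA in these values was not tested.

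**Figure D3:**
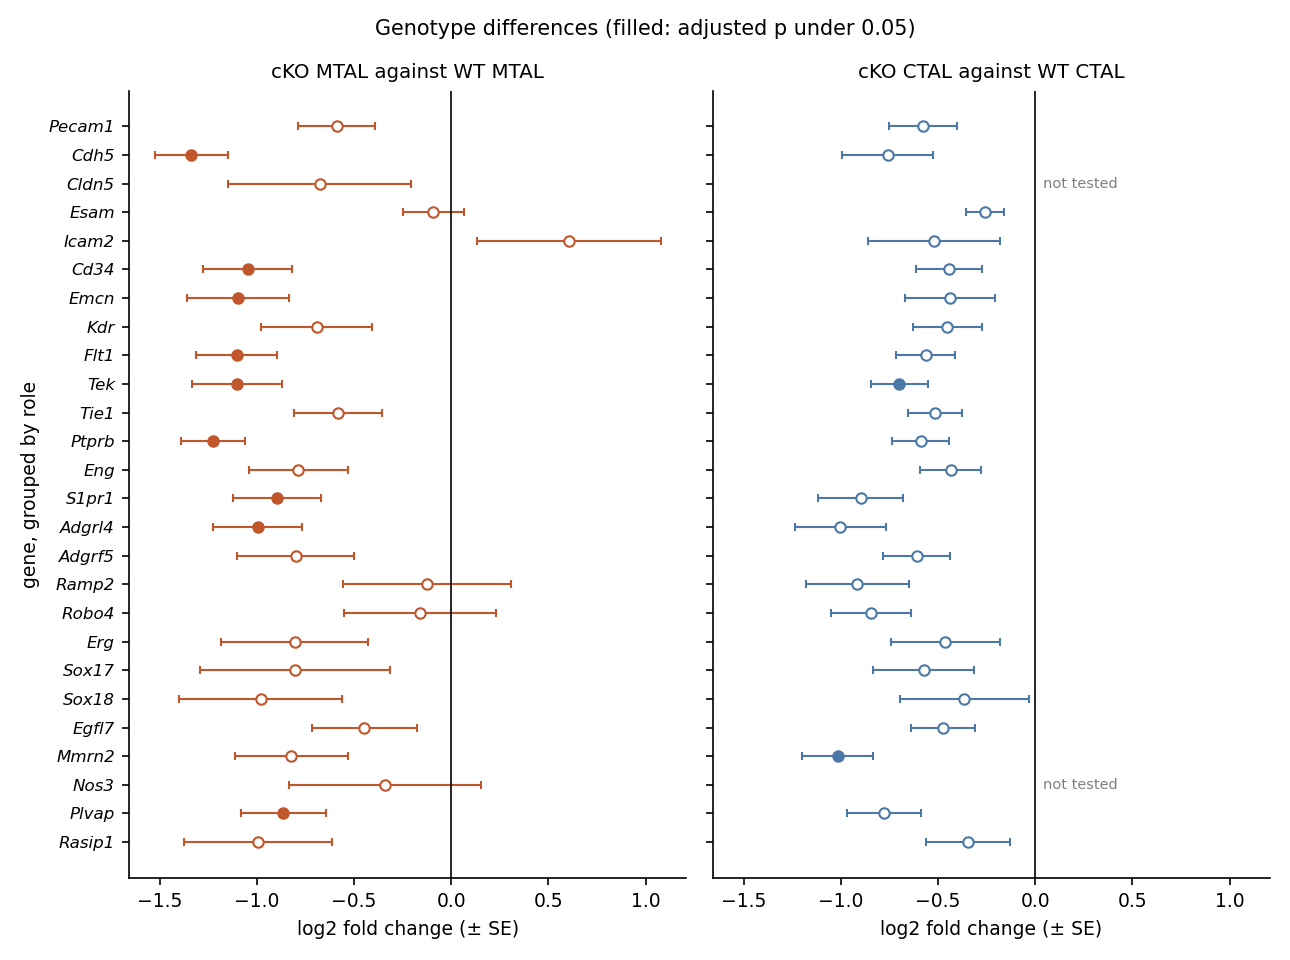
Log2 fold change (± SE) of cKO against WT in MTAL (left) and CTAL (right) for the 26 genes tested in MTAL, by role, with filled points for an adjusted p under 0.05 and 2 genes not tested in CTAL. In MTAL 25 of 26 values were negative and 9 passed, and in CTAL 24 of 24 were negative and 2 passed.

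In the CTAL, *Tek* and *Mmrn2* fell in cKO, 2 of the 24 genes tested, and none rose. Of all 11702 genes tested, 0.564% fell and 0.658% rose (edgeR quasi-likelihood F test, adjusted p under 0.05). A fall of at least 1 on the log2 scale was called for *Mmrn2* alone, against 0.214% of all genes. All 24 log2 fold changes were negative, with a median of -0.57 where that of all genes was 0.00, and 19 had an unadjusted p under 0.05. For 3 genes, *Tek*, *S1pr1* and *Mmrn2*, all cKO pools lay under all WT pools, which held for 1.24% of all genes. The count depended on WT CTAL replicate 1, the pool with conflicting labels: without it 12 genes fell, beside 0.86% of all genes. With it counted as cKO, against its *Cldn10* level in the WT range, 14 did, beside 0.752% of all genes. The likelihood ratio tests of edgeR and DESeq2 each called 11 of the 24, where 1.44% and 1.58% of all genes fell, and limma on log2(TPM + 1) called 0, where 0.0769% did. With the term for *Xist* 2 genes fell, and among the pools without *Xist* 0 of 24 did (12 at an unadjusted p under 0.05, 22 negative, median -0.41). The share of all genes that fell in these 2 fits is not given here, and *Cldn10* was called lower in both.

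*Mmrn2* was at 11.2, 22.1, 21.3, 19.9 and 25.5 CPM in WT CTAL (replicates 1, 3, 8, 10 and 22) and at 8.96, 10.1, 9.44, 10.4 and 10.98 CPM in cKO CTAL (replicates 2, 4, 7, 9 and 21). WT replicate 1 lay just above the cKO pools and the other WT pools were about 20 CPM or more (log2 fold change -1.02, SE 0.18, adjusted p = 0.0131, edgeR). *Tek* was at 23.5, 35.1, 27.3, 31.8 and 27.8 CPM in WT and at 18.7, 23.2, 15.7, 18.3 and 14.04 CPM in cKO. WT replicate 1 and cKO replicate 4 nearly touched (-0.70, SE 0.15, adjusted p = 0.0301). The call of *Tek* was lost without WT CTAL replicate 3, 10 or 22 or cKO CTAL replicate 2, 7, 9 or 21.

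The genes called in MTAL alone were also lower in cKO CTAL pools by their means, without passing there. *S1pr1* was at 9.81, 22.4, 9.21, 16.2 and 16.1 CPM in WT CTAL and at 6.996, 8.33, 8.02, 7.54 and 8.67 CPM in cKO CTAL (-0.90, SE 0.22, adjusted p = 0.067, edgeR). *Adgrl4* was at 21.3, 65.5, 31.9, 38.5 and 32.1 CPM in WT and at 19.8, 21.7, 18.5, 20.9 and 13.3 CPM in cKO (-1.002, SE 0.24, adjusted p = 0.054). Only WT replicate 1 reached the range of the cKO pools for this receptor. *Plvap* was at 71.5, 182, 98.2, 120, 122 CPM in WT and at 72.1, 83.5, 75.6, 58.7 and 58.0 CPM in cKO (-0.78, SE 0.19, adjusted p = 0.067). *Ptprb* was at 30.9, 57.8, 53.6, 58.2 and 51.1 CPM in WT and at 30.6, 36.7, 31.8, 36.3 and 32.9 CPM in cKO (-0.59, SE 0.14, adjusted p = 0.067). For both, WT replicate 1 lay among the cKO pools and the other WT pools above them. *Flt1* was at 35.8, 64.2, 52.0, 61.1 and 60.5 CPM in WT and at 35.5, 43.7, 40.0, 38.9 and 28.1 CPM in cKO (-0.56, SE 0.15, adjusted p = 0.098). *Cdh5* was at 16.1, 55.9, 26.4, 33.7 and 32.3 CPM in WT and at 18.1, 22.4, 19.9, 18.4 and 18.4 CPM in cKO (-0.76, SE 0.23, adjusted p = 0.163). In *Cdh5* WT replicate 1 was below every cKO pool.

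*Cd34* was at 9.81, 17.7, 12.5, 18.4 and 14.99 CPM in WT CTAL and at 11.6, 11.02, 9.79, 11.3 and 10.5 CPM in cKO CTAL (-0.44, SE 0.17, adjusted p = 0.29, edgeR). *Emcn* was at 22.9, 44.7, 28.0, 30.9 and 17.4 CPM in WT and at 15.8, 30.2, 23.1, 21.9 and 15.5 CPM in cKO, with wide overlap (-0.44, SE 0.23, adjusted p = 0.50). *Esam* was at 60.8, 60.6, 49.4, 72.2 and 65.4 CPM in WT and at 47.7, 52.1, 50.1, 53.3 and 56.7 CPM in cKO (-0.26, SE 0.10, adjusted p = 0.285). The cKO pools of *Esam* lay inside the lower part of the WT range or just under it. *Kdr* was at 40.4, 73.9, 63.8, 59.6 and 57.4 CPM in WT and at 29.0, 55.8, 51.4, 45.5 and 35.6 CPM in cKO (-0.45, SE 0.18, adjusted p = 0.305). *Adgrf5* was at 39.3, 73.7, 48.3, 74.4 and 64.5 CPM in WT and at 46.5, 38.3, 32.5, 47.6 and 32.2 CPM in cKO (-0.61, SE 0.17, adjusted p = 0.121). *Eng* was at 33.1, 59.9, 42.2, 54.8 and 57.5 CPM in WT and at 36.0, 47.3, 31.6, 35.6 and 33.4 CPM in cKO (-0.44, SE 0.16, adjusted p = 0.256). In these 3 genes the groups overlapped. Of the others that passed the filter on low levels, *Robo4* (-0.84, adjusted p = 0.067) and *Ramp2* (-0.92, adjusted p = 0.126) had the largest differences. The transcription factors *Erg*, *Sox17* and *Sox18* lay between -0.36 and -0.57.

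In WT mice, *Cd34* and *Ptprb* were higher in MTAL than in CTAL, 2 of the 25 genes tested, and none was lower. Of all 11650 genes tested, 2.76% were higher and 4.1% lower in MTAL (edgeR, adjusted p under 0.05). *Cd34* was at 25.3 to 33.6 CPM in WT MTAL and 9.81 to 18.4 CPM in WT CTAL (log2 fold change 1.06, SE 0.17, adjusted p = 0.000752), and *Ptprb* at 67.8 to 93.9 and 30.9 to 58.2 CPM (0.70, SE 0.15, adjusted p = 0.00668). Both were without overlap, which held for 3.06% of all genes in this direction, and *Cd34* alone passed the limit of 1 on the log2 scale, as did 0.652% of all genes. *Esam* (0.44, adjusted p = 0.053), *Sox17* (1.07, adjusted p = 0.071) and *Adgrf5* (0.50, adjusted p = 0.096) missed the threshold. The median of the 25 was 0.18, that of all genes 0.02, 6 of the 25 values were negative, and 6 higher and 1 lower (*Icam2*, -0.71) had an unadjusted p under 0.05. *Vwf* was too low for the filter, at 0.233, 0.471, 0.591, 0.27 and 0.234 CPM in WT CTAL and 1.79, 1.79, 1.07, 1.26 and 3.11 CPM in WT MTAL, without overlap. In a fit without the filter its log2 fold change was 2.33 (SE 0.45, adjusted p = 0.00868). Of the 5 WT MTAL pools 4 held *Xist*, and with a term for it both calls remained. The pools without *Xist* hold 1 WT MTAL pool, too few for a reading of calls. Among them the log2 ratio of the summed level between WT segments was 0.10.

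In cKO mice, *Esam* was higher in MTAL than in CTAL, 1 of the 25 genes tested, and none was lower (edgeR). Of all 12044 genes tested, 1.12% were higher and 0.631% lower. *Esam* was at 83.8, 71.0 and 80.2 CPM in cKO MTAL and at 47.7 to 56.7 CPM in cKO CTAL, without overlap (0.63, SE 0.11, adjusted p = 0.0105), and this call was lost without cKO MTAL replicate 16. *S1pr1* was also higher in all cKO MTAL pools (4.15% of all genes were), while *Cdh5*, *Emcn* and *Sox18* were lower in all of them (5.98% of all genes were). The median of the 25 was 0.10, beside 0.03 for all genes, with 14 values positive and 11 negative. At an unadjusted p under 0.05 there were 1 higher and 3 lower, and *Esam* was called also among the pools without *Xist*.

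Whether the genotype difference itself differed between the segments was tested in a single fit of all 18 pools. None of the 26 genes passed with the quasi-likelihood test of edgeR, nor with its likelihood ratio test, DESeq2 or limma, and 3 had an unadjusted p under 0.05 with the quasi-likelihood test. With the term for *Xist* edgeR called 0 as well (1 at an unadjusted p under 0.05), and so it did among the pools without *Xist* (0). Of all 12586 genes, 0.262% were called higher and 0.0238% lower. The 3 genes were *Ptprb* (-0.65, SE 0.23, adjusted p = 0.161), *Cd34* (-0.62, SE 0.28, adjusted p = 0.296) and *Flt1* (-0.56, SE 0.26, adjusted p = 0.329), with the larger fall in MTAL. Of the 24 genes tested in both segments, 23 were negative in both and 1, *Tek*, was called in both. The genes called in MTAL and not in CTAL are thus not shown to differ between segments. The 4 comparisons of groups share pools and are not independent of each other.

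**Figure D4:**
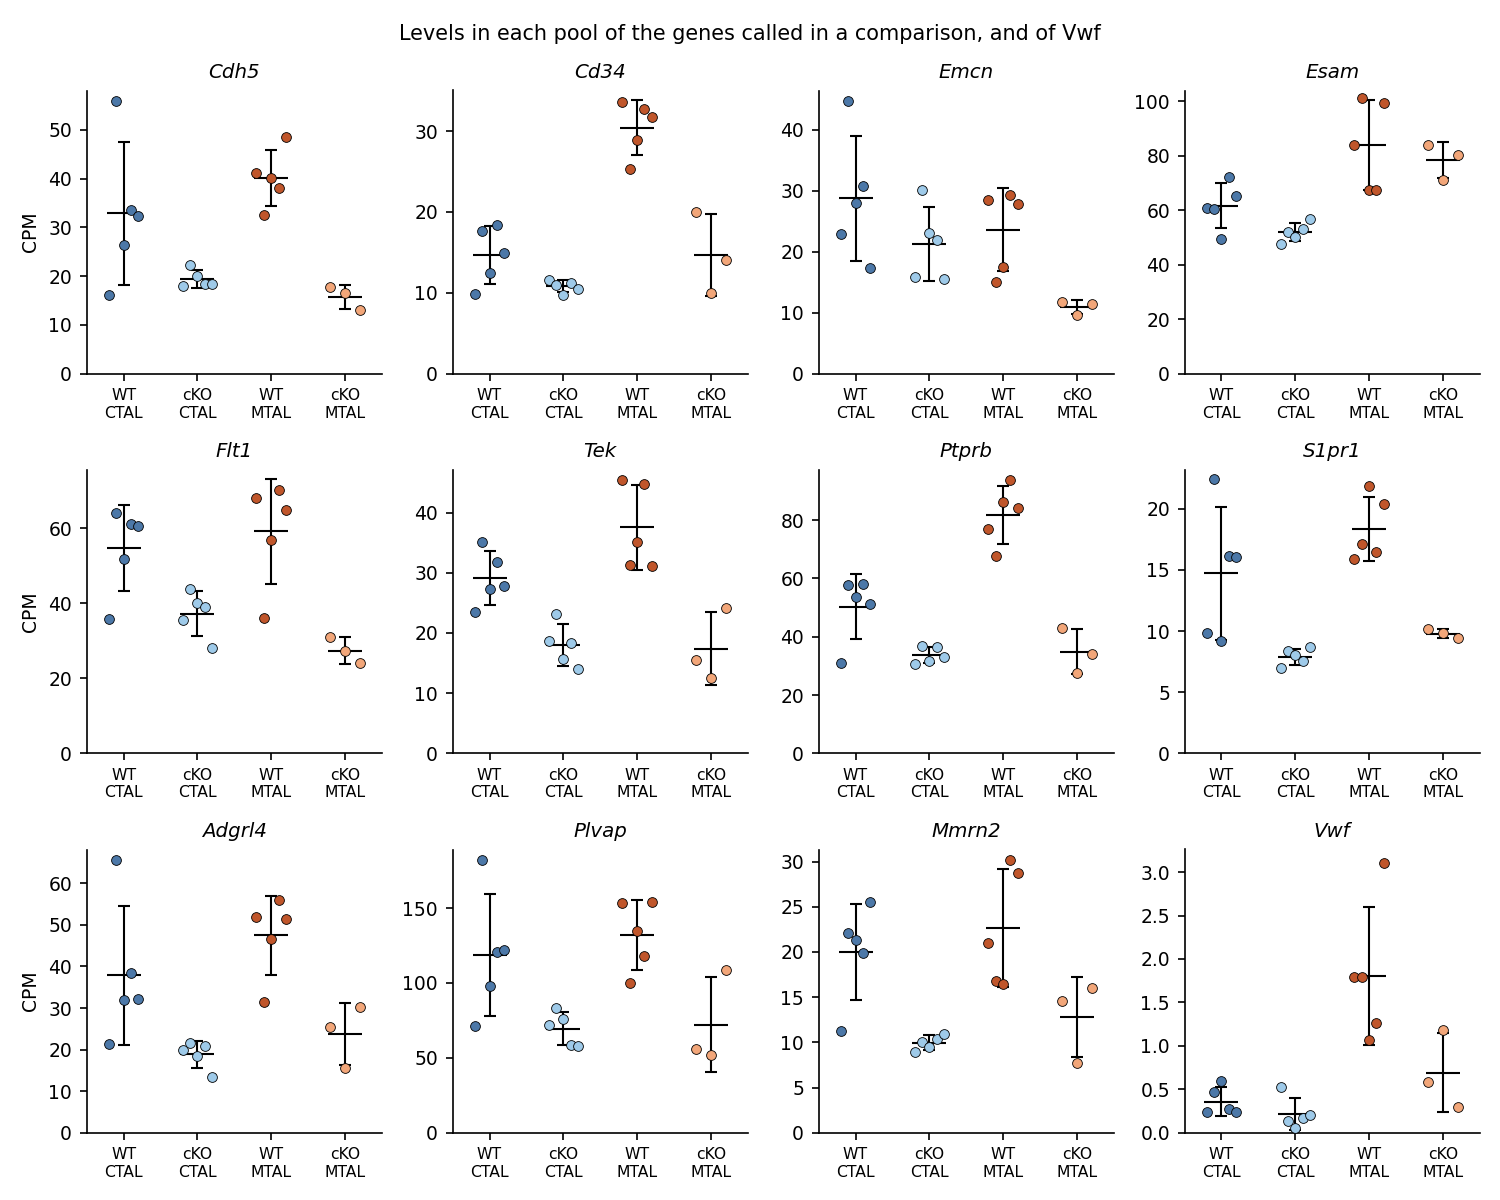
Level (CPM) in each pool of the 11 genes called in at least 1 comparison and of *Vwf*, by group. Points are pools, and bars give the mean and SD. For most of them WT MTAL was highest and both cKO groups low, as for *Ptprb* (means 81.8 CPM in WT MTAL, 34.8 in cKO MTAL and 33.7 in cKO CTAL), while *Esam* stayed high in cKO MTAL (78.4 CPM).

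A list of 17 further endothelial genes was chosen beside the 30, also with earlier results of these data known. Its summed level was 175 ± 36.9 CPM in WT CTAL, 117 ± 12.5 in cKO CTAL, 198 ± 19.8 in WT MTAL (SD, n = 5 each) and 105 ± 21.3 in cKO MTAL (n = 3). In cKO MTAL 4 of the 14 tested fell and none rose (median -0.95), beside 2.57% of all genes. The largest falls among these 4 were those of *Cd300lg*, a capillary surface glycoprotein (-1.72, SE 0.25, adjusted p = 0.00065, edgeR), *Rgcc*, a cell cycle regulator (-1.37, SE 0.25, adjusted p = 0.0041) and the receptor gene *Notch4* (-1.14, SE 0.23, adjusted p = 0.0085). In cKO CTAL 0 of 14 passed with edgeR, 10 having an unadjusted p under 0.05, all lower (median -0.62). *Rgcc* was the sole gene of this list called between WT segments, higher in MTAL (0.83, SE 0.18, adjusted p = 0.0069).

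Lists for kinds of vessel were read beside these. Of the arterial and descending vasa recta genes, *Slc14a1*, the urea transporter UT-B of the descending vasa recta and of red blood cells, was higher in MTAL than in CTAL in WT (2.49, SE 0.28, adjusted p = 2.6e-05, edgeR; 1 of 6 tested) and in cKO (1.89, SE 0.36, adjusted p = 0.021; 1 of 5). In cKO MTAL it fell (-1.36, SE 0.34, adjusted p = 0.026), as did *Sema3g*, an arterial semaphorin (-1.03, SE 0.27, adjusted p = 0.032), 2 of 7 tested, while 0 of 4 passed in cKO CTAL, with 1 at an unadjusted p under 0.05. Of the 6 venous genes 3 or 4 were tested in a comparison and none passed (edgeR), with at most 2 at an unadjusted p under 0.05 in each. *Ackr1*, a marker of venules, had 0 counts in every pool, which allows up to 0.282 CPM in the shallowest pool (3 counts, counting error only). In this list *Nr2f2* was at 91.7 to 167 TPM and *Ephb4* at 29.1 to 46.8 TPM over the pools, where *Plvap* had a median of 66.2 TPM. How far the venous list reads vessel RNA was not tested. Of the glomerular endothelial genes, *Hecw2* fell in cKO CTAL (-1.16, SE 0.23, adjusted p = 0.024; 1 of 4 tested), and 0 of 6 passed in cKO MTAL (1 at an unadjusted p under 0.05). Of the lymphatic list, *Prox1*, a homeobox factor that tubule cells also express, was higher in WT MTAL than in WT CTAL (1.32, SE 0.14) and fell in cKO MTAL (-1.01, SE 0.14, adjusted p = 0.0005), while *Lyve1* had 0 counts in all pools.

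Of the 11 ligands of endothelial receptors, *Angpt2*, a ligand of TIE2, followed the same order. It was higher in WT MTAL than in WT CTAL (1.56, SE 0.43, adjusted p = 0.036, edgeR) and fell in cKO MTAL (-1.77, SE 0.35, adjusted p = 0.0069), 1 of 6 tested, and 0 of 4 ligands passed in cKO CTAL (1 at an unadjusted p under 0.05). *Slit2*, a guidance cue bound by roundabout receptors, was lower in MTAL in both genotypes (-0.50 in WT and -0.65 in cKO).

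Markers of mural, fibroblast and immune cells did not share this order over the groups, but the mural and fibroblast list was also lower in cKO CTAL. The 14 mural cell and fibroblast genes summed to 101, 83.7, 98.1 and 110 CPM in WT CTAL, cKO CTAL, WT MTAL and cKO MTAL. In cKO MTAL 1 of 10 tested rose (*Acta2*, smooth muscle actin, 1.22, SE 0.27, adjusted p = 0.011, edgeR) and none fell. In cKO CTAL none of the 8 tested passed, but all 8 had a negative log2 fold change (median -0.27), 1 at an unadjusted p under 0.05. Within this list *Col1a2* was at 13.3 to 18.7 CPM in the pools with *Xist* and at 1.48 to 11.4 CPM in the others. The 10 immune cell genes summed to 71.9, 76.5, 70.0 and 75.3 CPM and none passed between genotypes in either segment (in MTAL 1 higher and 1 lower at an unadjusted p under 0.05, in CTAL 0). The defining podocyte genes *Nphs1* and *Wt1* had group means of at most 0.23 CPM, while the whole podocyte list, with *Podxl*, summed to 76.9, 58.2, 77.4 and 64.2 CPM. The red blood cell list summed to 9.34 CPM in WT MTAL and 38.6 CPM in cKO MTAL, and *Hbb-bt* rose (2.17, SE 0.63, adjusted p = 0.049), 1 of 4 tested. Over the pools this sum was 3.11 to 12.1 CPM with *Xist* and 18.1 to 47.3 CPM without. Of tubule markers, the proximal tubule list summed to 22.1 CPM in WT MTAL and 54.6 CPM in cKO MTAL (*Slc34a1* rose, 2.39, SE 0.47, adjusted p = 0.0066), and the distal convoluted tubule list to 2.28 and 3.75 CPM. *Atp6v0d2* of the intercalated cell list rose in cKO MTAL (1.86, SE 0.51, adjusted p = 0.038) and in cKO CTAL (1.66, SE 0.31, adjusted p = 0.015). The thick ascending limb list summed to 57218 CPM in WT MTAL and 73356 CPM in cKO MTAL, with *Umod* and *Cldn16* among its genes that rose. The part of these lists in the endothelial values was not tested.

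The lists beside the 30 genes were also fitted with *Xist* taken into account, a check chosen after seeing the data. With the term for *Xist*, and outside the thick ascending limb list, edgeR called 0 of their 70 genes tested in cKO MTAL, where 10 higher and 6 lower had an unadjusted p under 0.05. The falls of *Cd300lg*, *Rgcc*, *Notch4*, *Slc14a1*, *Sema3g*, *Prox1* and *Angpt2* and the rises of *Acta2*, *Hbb-bt*, *Slc34a1* and *Atp6v0d2* in cKO MTAL were thus no longer called. Among the pools without *Xist* 0 of 57 were called there (4 higher and 4 lower at an unadjusted p under 0.05). In cKO CTAL *Hecw2* and *Atp6v0d2* were called with the term, and 0 of 67 genes among the pools without *Xist* (1 higher and 9 lower at an unadjusted p under 0.05). Between WT segments *Rgcc*, *Slc14a1* and *Prox1* were called with the term and *Angpt2* and *Slit2* were not, and of these 5 genes *Prox1* alone was called among the pools without *Xist*. Between cKO segments *Slc14a1*, *Prox1* and *Col1a1* were called higher in MTAL in both fits, and *Cd300lg* and *Slit2* lower. *Col1a1* and *Cd300lg* were not called there in the main fit.

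Outside the 30 genes, the 10 genes whose level over the 18 pools was most like the mean of the endothelial genes, among 11805 candidates, were *Podxl* (r = 0.94), *Fabp4* (0.92), *Dclk3* (0.92), *Tmtc1* (0.90), *Plxnd1* (0.90), *Stom* (0.90), *Sparcl1* (0.90), *Gm45650* (0.89), *Rnf144a* (0.89) and *Arhgef15* (0.89), the first from the podocyte list and the last from the further endothelial list. *Podxl*, which podocytes and endothelial cells both express, had means of 49.3, 33.7, 59.5 and 36.8 CPM in WT CTAL, cKO CTAL, WT MTAL and cKO MTAL. *Fabp4*, a fatty acid binding protein of capillaries and fat cells, had 55.1, 30.9, 53.1 and 25.8 CPM in the same order. These genes were ranked on the same pools, and their likeness is a description.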

How the data were processed

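Poly-A RNA of 18 pools was sequenced with strand-specific libraries. Reads were trimmed with fastp, then mapped and quantified with DRAGEN on mm10 and a gencode annotation by the authors. They deposited estimated counts per gene, not normalized, and TPM values, corrected for transcript length and depth. Whether counting used the strand is not given in the sources used here. Genes which overlap another on the opposite strand alone (*Cd34*, *Eng*, *Sox17*, *Nos3*, *Ecscr*) are therefore uncertain. *Ramp2*, *Egfl7* and *Rasip1* share exonic bases with a gene on the same strand and are uncertain either way. The study excluded cKO MTAL pools after quality control and a cKO CTAL pool with *Cldn10* near the WT CTAL level. These pools were not analysed here.

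Estimated counts were rounded, where the plan had assumed whole counts. Genes that reached 3 CPM in 5 pools or more (3 pools where cKO MTAL was compared) were fitted on the pools of the compared groups with edgeR 4.0.16 (R 4.3.3; TMM, quasi-likelihood F test) and adjusted by Benjamini-Hochberg over all genes tested. A gene was called at an adjusted p under 0.05. The difference of genotype effects was an interaction term. Alternatives used total counts, no filter, DESeq2 1.42.0, the likelihood ratio test of edgeR, limma 3.58.1 on log2(TPM + 1), and left out each pool. Scripts were tested on simulated data. Members, roles, other lists and the rule for named genes were chosen with earlier results of these data known. By that rule all members are named, those called and the 3 most abundant others with their value in each pool, other lists by counts and at most 3 called genes, and the 10 genes most alike. Counting error differs between pools, with totals from 10824299 to 62339939, and the chi-square per gene between replicates was 16.1 to 145, above sampling noise. Pools came from distinct mice.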

Additional observations from a re-analysis of the deposited data

Results flagged for a closer look

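Among 93 sets of 5 pools, 4 held a pool far from the rest, with a gap to the nearest pool over 0.71 of the range, where chance flags about 1 in 20. *Cldn5* was at 6.21 CPM in WT CTAL replicate 3, and the next pool was at 1.05 CPM. *Ptprb* was at 30.9 CPM in WT CTAL replicate 1, the pool with conflicting labels, and the next was at 51.1 CPM. *Eng* was at 47.3 CPM in cKO CTAL replicate 4, above the next at 36.0 CPM. *Egfl7* was at 12.8 CPM in cKO CTAL replicate 2, below the next at 17.5 CPM.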

How the results depend on the processing

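The genes called kept their direction under all alternatives run, staying called in 196 cases and not in 68. With TPM values in limma, at a pseudocount of 1 or 0.1, the number of genes called was 3 in cKO MTAL, 0 in cKO CTAL, 1 between WT segments and 0 between cKO segments. At a pseudocount of 1 this scale moved the median of all genes to 0.19 in MTAL and 0.13 in CTAL, where that of the genes followed here was -0.51 and -0.39. The likelihood ratio tests of DESeq2 and edgeR gave 5 and 4 between WT segments, 11 each in cKO CTAL and 2 each between cKO segments. In cKO MTAL they gave 11 and 10, and a single fit of all 18 pools gave 13. For the comparisons of segments, the share of all genes called by limma and by the likelihood ratio tests is not given here. The counts between segments under these tests are thus not a result about the genes followed. A log2 fold change of at least 1 left 1 between WT segments, 1 in cKO CTAL and 0 between cKO segments. Total counts in place of TMM, or no CPM filter, left 1 in cKO CTAL. With WT CTAL replicate 1 counted as cKO, 14 were called in CTAL. The term for *Xist* left 0 in cKO MTAL, and the pools without *Xist* left 0 in cKO MTAL, cKO CTAL and between WT segments. Both alternatives were chosen after seeing the data, and the latter has 1 WT MTAL pool, whose spread was taken from the other groups. Leaving out a pool gave 2 to 4 between WT segments (4 without WT MTAL replicate 13), 6 to 12 in cKO MTAL (6 without WT MTAL replicate 19 or cKO MTAL replicate 18, 12 without cKO MTAL replicate 20), 1 to 12 in cKO CTAL (12 without WT CTAL replicate 1), 0 to 1 between cKO segments and 0 to 0 for the difference of genotype effects. The summed level kept its direction in cKO MTAL (-1.02 to -0.61) and cKO CTAL (-0.70 to -0.47) with any pool left out, as it did between WT segments (0.13 to 0.36), but ran from -0.19 to 0.22 between cKO segments. As a sum of TPM the difference in cKO MTAL was -0.30, where replicate 20 is the highest pool. The causes of these shifts were not tested. No paired analysis was possible because the groups share no replicate number, each mouse giving a single pool. Genes that did not reach 3 CPM in enough pools were tested only in the fit without that filter.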
